A study of Mus musculus with 8 samples.

Results

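The Bex (brain expressed X-linked) and Armcx (armadillo repeat containing X-linked) genes were examined in mouse epidermis with and without G9a. The members were the genes Bex1 to Bex4 and Armcx1 to Armcx6, taken by name with every probe set that the platform annotation assigns to them: 12 of 45037 probe sets, for 10 of 17097 genes. Of these probe sets, 11 name 1 member gene and 1 names both Armcx5 and its neighbour Gprasp1. The families were picked out because Bex1 stood high in the knockout in an earlier look at these same arrays, so the differences between knockout and wild type given for the members are a description with no test. The samples came from the interfollicular epidermis, the part of the skin epithelium that lies outside the hair follicles: 4 labelled as a conditional knockout of G9a (cKO) and 4 labelled G9a wild type (WT), each on its own array. All were 15 weeks old, and both groups had received the carcinogen DMBA (0.25 mg/ml) and the tumour promoter TPA (0.02 mg/ml), 200 µl of each, once a week for 6 weeks from 8 weeks of age. The tissue is called pre-neoplastic in the labels, which name neither the Cre line nor the deleted exons and do not say that each replicate is a separate animal, so the spread measured here may be partly technical.

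G9a, encoded by Ehmt2, is a methyltransferase that places mono- and dimethyl marks on lysine 9 of histone H3, which go with silent genes. Bex genes encode small, largely unstructured proteins that are abundant in brain; some bind the intracellular part of the neurotrophin receptor p75 (Ngfr) and have been tied to cell cycle exit and cell death. Armcx genes encode armadillo repeat proteins, several of which sit on the outer mitochondrial membrane and take part in moving mitochondria along axons. Both families lie with the related Tceal and GASP genes in a cluster on the X chromosome that is particular to placental mammals.

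The members that share a promoter sequence are shown first, and their array values are set side by side further on. RefSeq promoter windows (GRCm38.p6, 250 bases before to 50 after the annotated start) were found for 9 of the 10 genes, all but Armcx3. The windows of Bex1 and Bex4 matched at 288 of 294 aligned bases (98.0%), the closest of the 36 pairs. In the stretch before the start, read on each gene's strand at chrX:136215514-136215753 (minus strand) for Bex1 and chrX:136138750-136138989 (plus strand) for Bex4, 3 of 240 bases differed, and these are in capitals.
Bex1: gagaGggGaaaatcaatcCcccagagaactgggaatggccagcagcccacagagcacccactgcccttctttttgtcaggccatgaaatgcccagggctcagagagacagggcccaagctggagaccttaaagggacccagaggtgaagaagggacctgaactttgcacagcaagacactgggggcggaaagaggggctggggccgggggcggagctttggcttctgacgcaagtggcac
Bex4: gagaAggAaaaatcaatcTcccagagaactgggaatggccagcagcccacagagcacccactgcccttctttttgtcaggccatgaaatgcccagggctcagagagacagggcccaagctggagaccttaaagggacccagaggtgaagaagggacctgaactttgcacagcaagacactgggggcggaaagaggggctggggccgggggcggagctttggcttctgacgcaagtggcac
Bex2 and Bex3 were the next closest pair, alike at 223 of 263 bases (84.8%). Shown are 200 bases each, chrX:136068237-136068436 (minus strand) for Bex2 and chrX:136270016-136270215 (plus strand) for Bex3, with the 31 bases that differ in capitals.
Bex2: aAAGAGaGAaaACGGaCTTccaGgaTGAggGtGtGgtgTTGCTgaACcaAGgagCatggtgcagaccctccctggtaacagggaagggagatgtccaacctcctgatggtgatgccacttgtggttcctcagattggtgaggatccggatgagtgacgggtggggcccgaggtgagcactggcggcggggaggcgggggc
Bex3: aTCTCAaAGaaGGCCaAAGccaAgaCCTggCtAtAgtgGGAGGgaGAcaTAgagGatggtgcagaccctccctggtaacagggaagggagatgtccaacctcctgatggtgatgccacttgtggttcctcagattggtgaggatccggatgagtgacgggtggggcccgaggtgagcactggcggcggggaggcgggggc
Nearly all of these differences lay at the end farther from the start. The other 34 pairs of windows matched at 50.5% of aligned bases or fewer.

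A second shared feature lay close to the start in both families. Words of letters were compared on both strands after the windows had been seen, and the spacing was chosen then. In 6 of 9 member windows (Bex1, Bex3, Bex4, Armcx1, Armcx4 and Armcx6) TGACG was followed by CACGTG, with 12 or 14 bases from the first letter of one to that of the other. Of all 32851 windows in the table, 25 held this arrangement, or 0.0761%. The letters CACGTG alone were in 6 member windows and in 7.15% of all windows, and TGACG alone in 8 member windows and in 20.8% of all windows; the word CACGTG is its own reverse complement, and the arrangement contains both words. Of 11 relatives with windows, 5 had the arrangement (Tceal1, Tceal3, Tceal5, Tceal6 and Tceal8). The 30 bases around it are printed for each member, with both words in capitals.
Bex1: gcttcTGACGcaagtggCACGTGactagcc
Bex4: gcttcTGACGcaagtggCACGTGactagcc
Bex3: ggcagTGACGcagggccctCACGTGacccg
Armcx4: agcgaTGACGcggagccccCACGTGacccg
Armcx1: actggTGACGtgcccctCACGTGagccgaa
Armcx6: actggTGACGtggctgtCACGTGaccaaga
CACGTG began 3 bases before the annotated start in Bex1, Armcx1 and Armcx4, 9 before it in Bex4 and 26 before it in Armcx6, and at base 28 of the transcript in Bex3. The arrangement was not found in the windows of Bex2, Armcx2 and Armcx5. The Bex2 window, which runs 37 bases out of step with that of Bex3, stops before the matching place. These windows held 4 (Armcx2) to 25 (Armcx5) CpG dinucleotides, with 8 in Bex1 and 9 in Bex4, where the median over all windows was 7.

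Before the members, the arrays were checked as a whole. Array medians lay between 5.72 and 5.80 (log2), and cKO 1 had the highest. At its probe set 1460692_PM_at Ehmt2, the targeted gene, averaged 9.49 ± 0.28 in WT against 6.61 ± 0.36 in cKO (SD, n = 4 each), while its other probe set gave a difference of 0.01 (SE 0.06, limma adjusted p = 0.996). WT 4 had a first principal component score of -13.5, among cKO scores of -16.4 to 4.09 and away from WT 1 to 3 at 11.8 to 18.3. On the second component it stood at -20.1, on the side of WT 1 to 3 (-9.21 to -0.168) and away from every cKO array (2.82 to 17.9). Keratinocyte markers, 12 of 12 genes measured, averaged 11.32 to 11.39 per array in cKO and 11.34 to 11.40 in WT. Since the members are X-linked, sex markers were read too: the 3 probe sets of Xist, the RNA made by the silent X of females, read 3.71 to 4.59 in cKO and 3.76 to 4.58 in WT, and the Y-linked gene Eif2s3y read 9.15 to 9.28 in cKO and 8.99 to 9.55 in WT at its probe set 1417210_PM_at. No array stood apart from the rest at these genes.

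Bex1 had by far the widest difference among the members. It read 5.68, 5.72, 5.53 and 5.22 in cKO 1 to 4 and 4.14, 4.69, 4.14 and 4.13 in WT 1 to 4 (log2). Every cKO array was above every WT array, and WT 2 was well above the other WT arrays. The means were 5.54 ± 0.22 and 4.28 ± 0.28 (SD, n = 4 each), a log2 difference of 1.26 (SE 0.15), which is 2.40-fold. Bex1 encodes an adaptor that binds the p75 receptor and links it to the cell cycle. Its level was in the lower 50% of probe sets by mean, and no detection call comes with the values, so the WT level was not shown to lie above background.

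Bex2, which has been tied to the control of apoptosis in tumour cells, read 5.25, 5.26, 5.22 and 5.19 in cKO and 4.74, 4.88, 4.98 and 4.84 in WT (log2). The groups did not overlap, and the cKO arrays lay within 0.07 of each other. The difference was 0.37 (SE 0.05), or 1.29-fold.

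Bex3, also called NADE for its part in cell death through p75, was the only Bex probe set in the upper 50% of all probe sets by mean. It read 9.76, 9.74, 9.69 and 9.63 in cKO and 9.46, 9.60, 9.43 and 9.49 in WT. The groups did not overlap, though cKO 4 was only slightly above WT 2. The difference was 0.21 (SE 0.05), or 1.16-fold.

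Bex4 read 4.38, 4.33, 4.36 and 4.33 in cKO and 4.13, 4.14, 4.22 and 4.43 in WT. Here WT 4 was the highest of the 8 arrays, so the groups overlapped, and the difference was 0.12 (SE 0.07). Bex1 and Bex4, with nearly the same promoter window, thus stood at 1.26 and 0.12, and Bex2 and Bex3 at 0.37 and 0.21. Each value comes from another probe set, so these sizes are set side by side without a test. Bex4 read 4.13 to 4.43 over all arrays, near the level of Bex1 in WT, and was likewise not shown to lie above background. A small difference there does not show that the gene did not change. Bex1 and Bex4 are close relatives, and what their probes share was not tested.

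**Figure D1:**
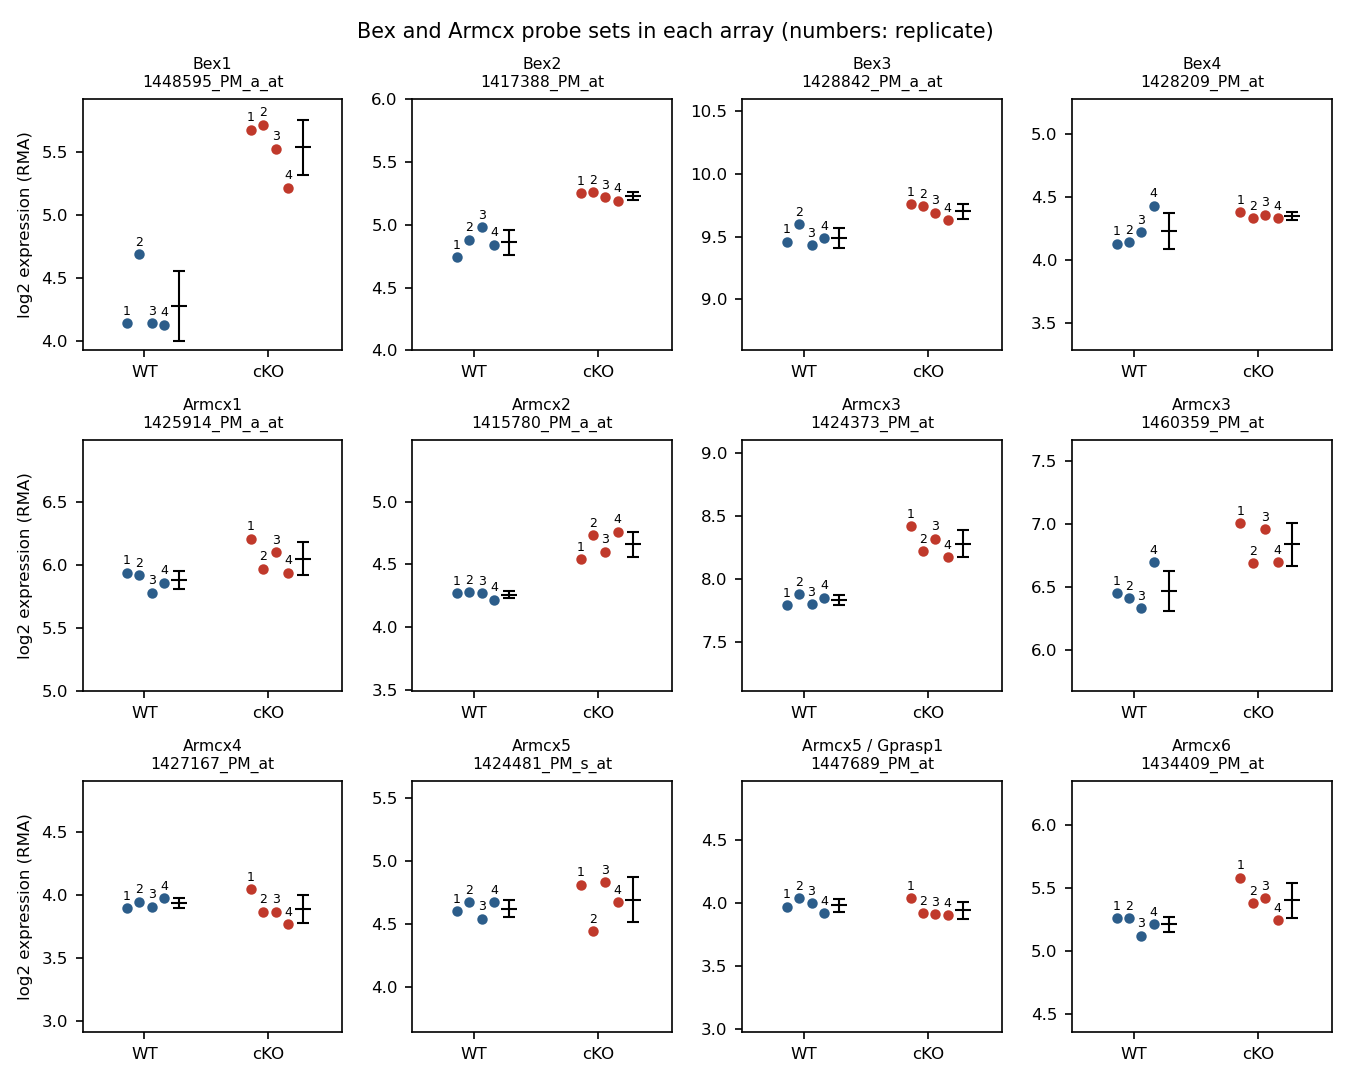
Log2 expression (vertical axis, each panel spanning 2 log2 units) of the 12 Bex and Armcx probe sets in 4 WT (blue) and 4 cKO (red) arrays; numbers are replicates and bars are mean ± SD. Bex1 shows the widest gap, with WT 2 at 4.69 above the other WT arrays. The groups overlap at Bex4, Armcx1, Armcx6, Armcx4, Armcx5, the second Armcx3 probe set (1460359_PM_at) and that of Armcx5 and Gprasp1.

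Among the Armcx genes the clearest separation was at Armcx3 and Armcx2. Armcx3 (ALEX3), a mitochondrial outer membrane protein that works with the Miro and TRAK proteins of mitochondrial transport, read 8.42, 8.22, 8.32 and 8.17 in cKO and 7.79, 7.88, 7.80 and 7.85 in WT at probe set 1424373_PM_at. The groups did not overlap, and the difference was 0.45 (SE 0.06), or 1.37-fold. The second Armcx3 probe set, 1460359_PM_at, read 7.01, 6.69, 6.96 and 6.70 in cKO and 6.45, 6.41, 6.33 and 6.70 in WT. It differed by 0.37 (SE 0.10) in the same direction, but WT 4 read as high as cKO 2 and cKO 4.

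Armcx2 (ALEX2) read 4.54, 4.73, 4.60 and 4.76 in cKO and 4.27, 4.28, 4.27 and 4.22 in WT. The WT arrays were within 0.06 of each other and all below the cKO arrays, and the difference was 0.40 (SE 0.06), or 1.32-fold. Armcx1 (ALEX1), known for moving mitochondria in regrowing axons, read 6.21, 5.97, 6.10 and 5.94 in cKO and 5.94, 5.92, 5.78 and 5.86 in WT. The groups met at cKO 4 and WT 1, and the difference was 0.18 (SE 0.07). Armcx6 gave a like picture, at 5.58, 5.38, 5.42 and 5.24 in cKO against 5.26, 5.26, 5.12 and 5.21 in WT, a difference of 0.19 (SE 0.07).

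At Armcx4 and Armcx5 the groups overlapped as well. Armcx4 read 3.77 to 4.05 in cKO and 3.90 to 3.98 in WT, a difference of -0.05 (SE 0.06). Armcx5 read 4.44 to 4.83 in cKO and 4.54 to 4.67 in WT, a difference of 0.07 (SE 0.08), at a probe set whose suffix _s_at marks probes shared by several transcripts. The probe set naming both Armcx5 and Gprasp1, which start at the same place in RefSeq, differed by -0.04 (SE 0.05).

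Counted together, 4 of the 11 member probe sets with 1 gene (Bex1, Bex2, Armcx2 and the first of Armcx3) were past the threshold of the limma fit, a Benjamini-Hochberg adjusted p of 0.05 over all probe sets, all higher in cKO. Over all probe sets 0.393% were past it and higher in cKO, 0.0733% past it and lower, and 0.466% past it in either direction. All cKO arrays were above all WT arrays at 5 of the 11, where 3.17% of all probe sets showed this. The median difference was 0.21 over the 11 and 0.01 over all probe sets, and 10 of 11 stood higher in cKO against 53.0% of all. The genes were chosen on this contrast, so nothing further is read from these shares. Of the 11 probe sets, 4 were in the upper 50% by mean: Bex3, Armcx1 and both of Armcx3.

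Refits of the same arrays moved these values as follows, and since the genes were chosen on these arrays they are no support for a difference. The Bex1 difference ran from 1.16 to 1.40 over 16 alternative settings, and was widest without WT 2. Bex2 was no longer past the threshold without cKO 1, cKO 2, cKO 3, WT 1 or WT 2, Armcx2 without cKO 2, cKO 3, WT 1, WT 2 or WT 3, and Armcx3 without cKO 3, WT 1 or WT 3. Armcx2 was also not past it after median centring (0.38). Only Bex1 then remained without cKO 3 or without WT 1, and 2 member probe sets remained without cKO 2, WT 2 or WT 3. Over the refits the difference ran from 0.33 to 0.41 for Bex2, 0.36 to 0.44 for Armcx2 and 0.41 to 0.49 for Armcx3. Why these calls were lost was not tested. Without both cKO 2 and WT 4, Bex2 was lost (0.35) and the second Armcx3 probe set passed (0.49).

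**Figure D2:**
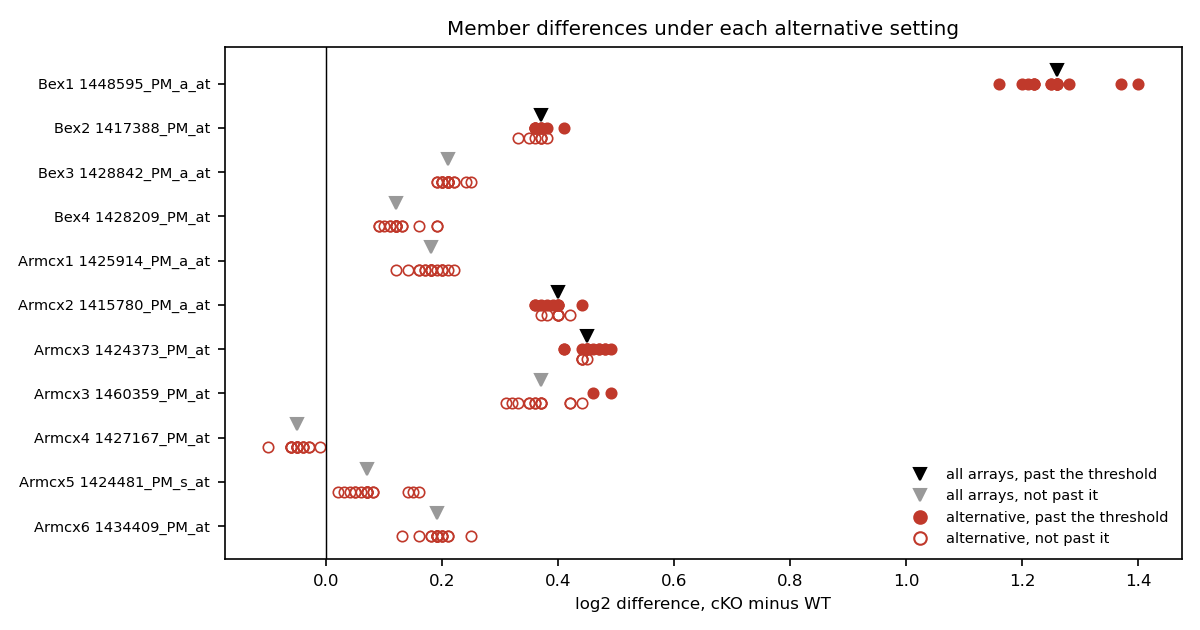
Log2 difference, cKO minus WT (horizontal axis), of the 11 member probe sets with 1 gene; triangles show the fit on all arrays and circles the alternative settings, filled where past the threshold of 0.05. The circles of Bex1 spread from 1.16 to 1.40, those of Bex2 from 0.33 to 0.41 and those of Armcx4 from -0.10 to -0.01; all come from the arrays on which the genes were chosen.

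Within the groups, some arrays were the highest or the lowest at many of the member probe sets. Among the cKO arrays, cKO 1 was the highest at 7 of the 11 probe sets and cKO 4 the lowest at 7. Armcx2 went the other way, with cKO 4 highest and cKO 1 lowest. Among the WT arrays, WT 2 was the highest at 5 and WT 3 the lowest at 5. Averaged over the 11, the arrays deviated from their group mean by -0.09 (cKO 4) to 0.10 (cKO 1). How often each array was highest or lowest over all probe sets was not counted, so the part of array-wide differences in this was not tested. The array cKO 1 also had the highest array median.

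Of the members, Bex3 varied most like Bex1 by Pearson r. After group means were removed, r was 0.96 and Spearman rho 0.81 over 8 arrays, and r was 0.87 over 6 arrays without WT 2 and cKO 4, the arrays farthest from the median of Bex1. By r, Bex3 ranked 19 among 28897 other probe sets with 1 gene. The remaining members had r from -0.30 (Bex4) to 0.58 (Armcx6) with Bex1. All values come from the same 8 arrays and share their normalisation.

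**Figure D3:**
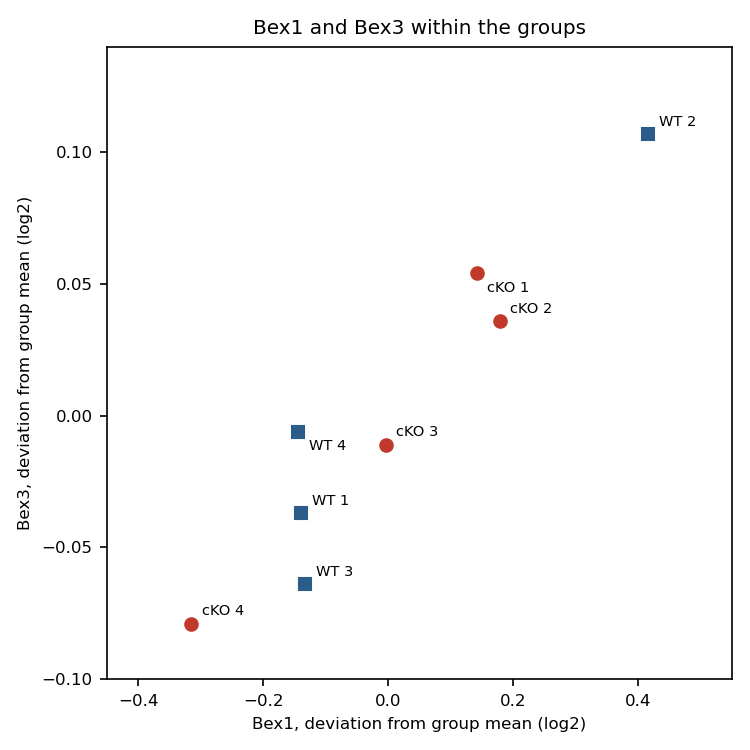
Deviation of each array from its group mean (log2) for Bex1 (horizontal axis) and Bex3 (vertical axis), with cKO arrays as red circles and WT arrays as blue squares. WT 2 lies highest and cKO 4 lowest on both axes, and r is 0.96 over the 8 arrays.

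Over the 8 arrays without that removal, the 5 probe sets most like Bex1 were those of Krtap4-13, a hair keratin associated protein (Pearson r = 0.996, log2 difference 0.17), Gsto1, a glutathione transferase (0.990, difference 0.23), Dkk3, a secreted Dickkopf family member (0.987, difference 0.47), the zinc finger gene Zfp941 (0.986, difference 0.69) and Ehd2, a membrane trafficking ATPase (0.985, difference 0.20). Such values mostly carry the difference between the groups. Of these 5, Dkk3 and Zfp941 were past the threshold (limma adjusted p = 0.0171 and 0.00904). The 5 were picked by likeness to a gene that separates the groups, so these calls are no independent result. Among the members Bex3 came first at 0.978, rank 15, then Armcx3 at 0.957, Bex2 at 0.926 and Armcx2 at 0.875. With group means removed, the 5 most alike were 1700084F23Rik (0.989), Thy1, a surface glycoprotein of T cells and neurons (0.987), 1500009C09Rik (0.979), the endothelin receptor gene Ednrb (0.973) and Wnt9b (0.971), none of which was past the threshold (limma adjusted p from 0.653 for Thy1 to 0.996).

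The cluster in which the members lie was then read gene by gene. Between Armcx4 and Bex3, the outermost members, the reference table places 52 genes that are no members, 24 of them protein coding, and 14 had a probe set. None of the 14 was past the limma threshold, where 0.466% of all probe sets were. At an unadjusted p under 0.05 there were 2 (14.3%), against 7.98% of all probe sets. All cKO arrays were above all WT arrays at 3 of the 14 (21.4%), Pramel3, Nxf7 and Tceal9, against 3.17% of all probe sets. The furthest was Nxf7, of the nuclear RNA export factor family, at 0.34 (SE 0.06, limma adjusted p = 0.0532), with all cKO arrays above all WT arrays. It passed without cKO 4 (adjusted p = 0.0385) and under loess (0.0341), median centring (0.0452), a trended prior (0.0291), array weights (0.0121) or 1 probe set a gene (0.0324), and its adjusted p reached 0.205 without cKO 3. The next was Tceal9, between Bex1 and Bex3 in gene order, at 0.13 (SE 0.05, adjusted p = 0.502). Tceal7, the measured gene closest to Bex1 on one side, stood at 0.02 (SE 0.05, adjusted p = 0.991), and Tceal8, the closest on the other, at 0.11 (SE 0.06, adjusted p = 0.761). That Bex1 and its neighbours differ in their change was not tested.

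**Figure D4:**
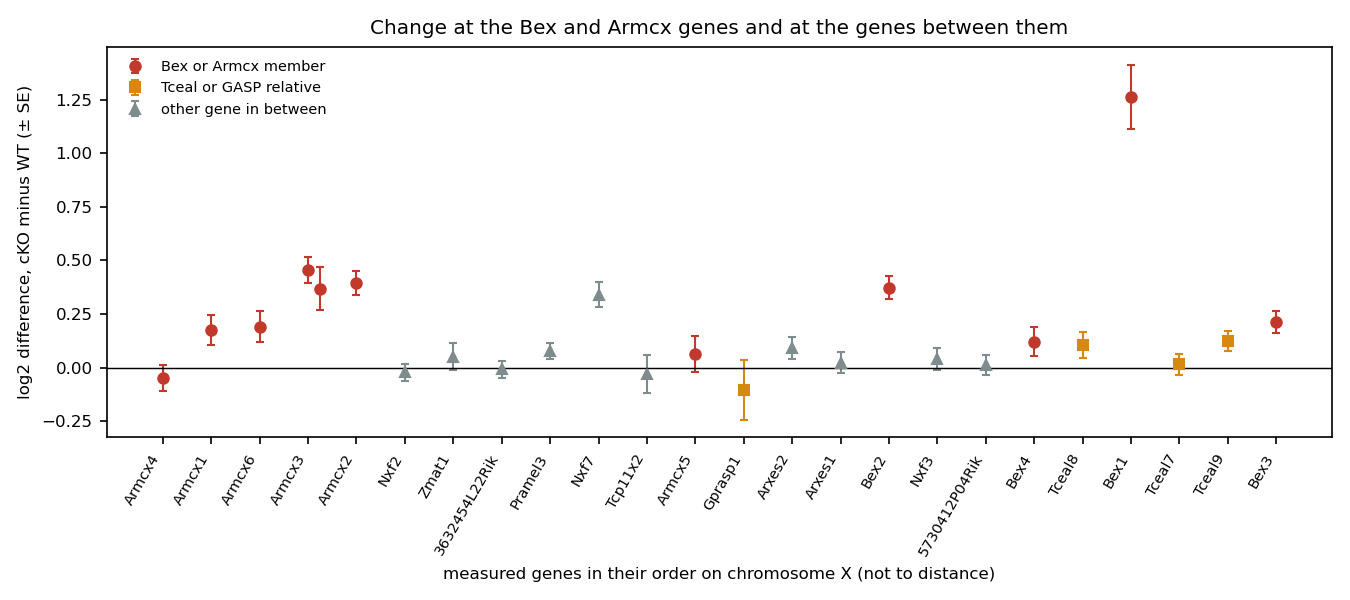
Log2 difference, cKO minus WT, with SE (vertical axis) at the measured genes from Armcx4 to Bex3 in their order on chromosome X, spaced evenly and not by distance. Bex1 stands at 1.26 between Tceal8 at 0.11 and Tceal7 at 0.02, and Nxf7 at 0.34 is the highest gene that is no member.

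Of 11 listed relatives, which are Tceal genes, of a family of small nuclear proteins, GASP genes, whose products bind G protein-coupled receptors, and the autosomal Bex6, 7 were measured. None was past the limma threshold, with 1 of 7 (14.3%) at an unadjusted p under 0.05, against 7.98% of all probe sets. Their differences ran from -0.10 (Gprasp1, SE 0.14, adjusted p = 0.959) to 0.13 (Tceal9). The median was 0.02. Bex6, a Bex gene on chromosome 16, stood at -0.05 (SE 0.04, adjusted p = 0.911) and read 3.47 to 3.53 in cKO and 3.49 to 3.63 in WT. Of 949 probe sets of X-linked genes, 11 (1.16%) were past the threshold and higher in cKO, and 4 of these were members. Without the members it was 7 of 938 (0.746%). The share was 0.393% over all probe sets and 0.444% over those of autosomal genes.

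Genes that act with the Bex proteins at the p75 receptor were read from a list of 15, of which 9 had probe sets. Of their 29 probe sets 6 (20.7%) had an unadjusted p under 0.05, all higher in cKO, against 7.98% of all probe sets. Apart from 1 probe set of Bdnf (0.16, the other Bdnf probe set at 0.01), all of the 6 belonged to Ntrk2. The share thus mostly counts 1 gene repeatedly and is not spread over the list. In the limma fit with adjusted p, 1 rose and 28 did not pass. It belonged to Ntrk2, the gene of TrkB, the receptor for brain-derived neurotrophic factor. Probe set 1435305_PM_at read 4.76, 4.75, 4.96 and 4.84 in cKO and 4.34, 4.50, 4.43 and 4.49 in WT, so that it rose by 0.39 (SE 0.06, limma adjusted p = 0.0321). This call was lost without any 1 array except WT 4 (highest adjusted p = 0.129). At 3 other Ntrk2 probe sets, with differences of 0.55 to 0.79 (adjusted p from 0.256 to 0.376), WT 4 read like the cKO arrays. Without WT 4 these 3 stood at 0.72 to 1.02 and passed (adjusted p from 0.00323 to 0.0197). WT 4 was the highest WT array at each of them, so leaving it out had to widen the difference. These passes are therefore no support for a change. The remaining 3 Ntrk2 probe sets did not pass, at 0.22, 0.12 and -0.04 (adjusted p = 0.151, 0.778 and 0.965). Ngfr itself, the p75 receptor, differed by -0.10 to -0.02 at its 3 probe sets (adjusted p from 0.918 to 0.995).

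Of 16 genes for mitochondrial movement, fusion and fission, the process in which Armcx proteins act, 15 were measured with 36 probe sets. None was past the limma threshold, and 4 (11.1%) had an unadjusted p under 0.05, against 7.98% of all probe sets. The largest differences were -0.27 at a probe set of the motor gene Kif5b, 0.21 at Dnm1l, the fission GTPase, -0.19 at Rhot1, which encodes Miro1, and -0.19 at the fusion gene Mfn1 (adjusted p = 0.953, 0.395, 0.407 and 0.599).

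Because Bex genes are best known from nervous tissue, markers of other cells that the preparation could hold were read. Neuron markers, 10 of 10 genes and 18 probe sets, averaged 4.41 to 4.48 per array in cKO and 4.38 to 4.45 in WT, and none was past the limma threshold or at an unadjusted p under 0.05. Merkel cell markers (13 probe sets) averaged 4.57 to 4.67 in cKO and 4.61 to 4.68 in WT, Schwann cell markers (18) 5.96 to 6.05 and 5.95 to 6.03, and melanocyte markers (15) 4.70 to 4.80 and 4.68 to 4.74. With fibroblast, endothelial and immune markers, 0 of 101 probe sets in 7 lists passed in the limma fit. At an unadjusted p under 0.05 there were 8 (7.92%), against 7.98% of all probe sets. By list these were 3 of 13 Merkel cell probe sets, 1 of them higher in cKO, and 2 of 10 immune probe sets. Schwann cell, melanocyte and fibroblast markers had 1 each, and neuron and endothelial markers 0. The widest difference was 0.49, at the immune marker Cd74 (SE 0.32, limma adjusted p = 0.814). In whole epidermis, more cells that express a gene and more RNA per cell cannot be told apart.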

How the data were processed

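RNA from 8 samples of interfollicular epidermis, 4 cKO and 4 WT, was amplified from 25 ng (17 cycles) and hybridised to 1-colour arrays, per the labels' protocols. The deposited log2 expression values, 1 per probe set, were made by RMA, which the authors name in the processing notes and which by definition corrects background, quantile normalises and summarises probes. The log base was inferred from the range of the values and was not checked on scanner files, and the RMA settings are not stated in the labels. Quantile normalisation removes any change common to most genes. Of 45141 rows, 104 controls were left out. Genes were named by the platform annotation (28898 probe sets with 1 gene, 551 with several, 15588 unnamed) and updated through Entrez numbers for 28689; older symbols overlap (Bex1 and Bex2 were once named otherwise), so members were checked by number. Groups came from the labels. All probe sets were fitted with limma 3.58.1 (lmFit, eBayes) in R 4.3.3, cKO against WT. Tests were two-sided and Benjamini-Hochberg adjusted, with a threshold of 0.05 and no filter. The procedure was also run on simulated data with independent noise at each probe set. These held no array-wide shifts or outlying arrays, so the run does not cover them. Errors are SE from the fit to the real arrays or SD over 4 arrays. The number of arrays limits the precision. The members and lists were chosen with earlier results of these data known. Named are all members, Ehmt2, up to 4 genes of a list by size or call, genes between the members and the 5 probe sets most like Bex1; Tceal7 and Tceal8 were added as neighbours of Bex1 and Ngfr as the p75 gene after their values were seen. Alternatives were the replicate block, leaving out arrays, a filter on dim probe sets, other normalisation, prior, weights and gene tables. Plots were drawn with matplotlib 3.10.9.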

Additional observations from a re-analysis of the deposited data

Results flagged for a closer look

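At Bex1, WT 2 read 4.69 (log2) where the nearest other WT array read 4.14, a gap of 0.98 of the range of the group. Without WT 2 the Bex1 difference was 1.40 in place of 1.26. At the probe set of Armcx5 and Gprasp1, cKO 1 read 4.04 where the nearest other cKO array read 3.92, a gap of 0.852 of the range; this probe set was far from the threshold with and without it. Both gaps passed the 95% critical value of Dixon's test for 4 samples, among 24 groups looked at, and chance passes it in about 1 in 20 groups.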

How the results depend on the processing

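No member probe set changed direction under the alternatives, and 172 of 192 member values stayed on their side of the threshold. The 192 include the probe sets that were not past it with all arrays. Of the 4 that were, Bex1 was past it in 16 of 16 alternatives and the first Armcx3 probe set in 13 of 17. Bex2 and Armcx2 were past it in 9 of 16 each. Leaving out 1 array gave 104 to 356 changed probe sets over the whole table (210 with all), 1 to 4 member probe sets (4 with all), 0 to 1 of the genes between the members, 0 to 4 pathway probe sets, and 0 relatives throughout. The count over the whole table was 657 without both cKO 2 and WT 4, 758 with array weights and 132 in the upper 50% of probe sets, where 1 member probe set, the first of Armcx3, was past the threshold; Bex1, Bex2 and Armcx2 are not in that table. Pathway probe sets past the threshold numbered 4 without both arrays, 5 with array weights and 0 in the upper 50% or with probe sets chosen or averaged per gene. Of the genes between the members, 1 passed under cyclic loess, median centring, a trended prior, array weights and both gene tables. With the replicate number as a block, 175 probe sets, 1 member (Bex1) and 0 pathway probe sets passed, so that Bex2, Armcx2 and Armcx3 did not. After median centring 3 members passed, without Armcx2. Whether the numbers pair the arrays is not known. Same-numbered deviations from the group means correlated at 0.13, 0.22, -0.62 and 0.37 for numbers 1 to 4. The arrays cKO 1 and cKO 4 correlated best with the WT array of their own number, cKO 2 and cKO 3 with another. With so few arrays these values cannot settle it. The cause of these shifts was not tested. Signal over background is unknown, which limits the low probe sets, Bex1 in WT among them.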

Other observations

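Apart from the members, 7 of 938 X-linked probe sets (0.746%) rose in cKO (limma), against 0.393% of all probe sets. Maob, which encodes monoamine oxidase B of the outer mitochondrial membrane, rose by 1.08 (SE 0.12, adjusted p = 0.00410), and Ssxb1, of a gene family known from testis and tumours, by 0.60 (SE 0.08, adjusted p = 0.0117). Pir, the gene of the nuclear protein pirin, rose by 0.58 (SE 0.08, adjusted p = 0.0145) and the homeobox gene Rhox5 by 0.45 (SE 0.07, adjusted p = 0.0290). Tmlhe, an enzyme of carnitine synthesis, rose by 0.41 (SE 0.06, adjusted p = 0.0137), Rtl8a, a gene derived from a retrotransposon, by 0.32 (SE 0.05, adjusted p = 0.0420), and Ids, a lysosomal sulfatase, by 0.28 (SE 0.05, adjusted p = 0.0418). None of them lies between Armcx4 and Bex3. No X-linked probe set was past the threshold and lower in cKO, where 0.0733% of all probe sets were.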
